A study of Mus musculus with 15 samples.

Results

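The 7 genes described here encode secreted acute phase proteins of the liver that bind small molecules, haemoglobin or haem or act on iron. They are lipocalin 2 (Lcn2), the 3 orosomucoids (Orm1, Orm2 and Orm3), haptoglobin (Hp), hemopexin (Hpx) and ceruloplasmin (Cp). Each was taken by its gene symbol from a table of 54532 mouse genes, and all 7 passed the filter on low counts, which left 14219 genes. The 7 genes were chosen by their higher counts in methotrexate-treated than in control livers, known from an earlier look at these same libraries. The difference between methotrexate and control is therefore given for them as a description, without a test.

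The study sequenced 15 libraries of liver RNA, taken from the whole organ in wild-type mice, with 5 libraries for each of the groups MTX+nitrate, MTX and control. MTX+nitrate mice drank water with 2 mM nitrate for 5 days before a single intraperitoneal injection of methotrexate (MTX, a folate antagonist) at 20 mg/kg. MTX mice are labelled with the injection alone, and in both groups the liver was taken 24 h after it. Control mice are labelled with neither agent, and no group with nitrate alone is in the labels. The labels used here give no strain, age or sex, nor whether the 5 libraries of a group are from 5 different mice. The p-values thus rest on differences among libraries of a group, which may in part be technical. In whole liver, fewer cells of a type and less RNA per cell cannot be told apart.

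In an acute phase response, hepatocytes change the mix of plasma proteins they secrete. Interleukin-6 acts through the gp130 receptor, JAK kinases and STAT3, interleukin-1 and TNF act through NF-kappaB, and glucocorticoids and C/EBP factors strengthen the transcription of many of the target genes. Lipocalin 2 binds the siderophores with which bacteria take up iron, orosomucoids bind basic drugs and other small ligands, haptoglobin captures free haemoglobin, hemopexin captures free haem, and ceruloplasmin is a copper ferroxidase that loads iron onto transferrin.

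Levels are counts scaled to library size (CPM) with trimmed-mean (TMM) factors, and log2 fold changes are given ± SE from edgeR. Genes with an adjusted p under 0.05 in edgeR's quasi-likelihood test, after Benjamini-Hochberg adjustment over the whole table, are called higher or lower. An unadjusted p under 0.05, given for some lists, was met by 3184 of the 14219 genes tested in MTX+nitrate against MTX. It was met by 3117 in MTX against control and by 2499 in MTX+nitrate against control, in either direction. DESeq2, used as an alternative, called 1154, 1116 and 755 genes in the same 3 comparisons. Library totals ran from 16663967 to 19274497 counts. The defining hepatocyte markers were abundant in every library, and their summed level of 8 genes ran from 80192 to 124816 CPM in MTX+nitrate libraries, from 112959 to 120248 in MTX libraries and from 89266 to 119150 in control libraries. Of the 8, Tdo2 alone was called, lower in MTX+nitrate than in MTX (adjusted p = 0.0263) and than in control livers (adjusted p = 0.0267), but not without MTX+nitrate library 1, 2 or 4 or MTX library 3 or 4 in the first comparison, nor without MTX+nitrate library 2 or 4 or control library 1, 3 or 5 in the second.

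The 3 orosomucoid genes are tandem copies on mouse chromosome 4 (GRCm38), all on the plus strand, and their similarity bears on how well their counts can be told apart. Orm1 lies at chr4:63344560-63348163, Orm3 at chr4:63356162-63359511 and Orm2 at chr4:63362449-63365878. Over the coding sequence of the GENCODE M21 principal transcript, Orm1 and Orm2 were 89.9% identical, Orm2 and Orm3 88.3%, and Orm1 and Orm3 86.4%. Of all 50-base stretches of the Orm1 transcript, 20.4% also occurred in the Orm2 transcript and 2.2% in the Orm3 transcript, so a part of the reads of these genes could have been assigned to either copy. The stretch of 60 coding bases in which Orm2 differed at most positions from Orm1 and Orm3 together is shown because reads across it separate the 3 genes. It spans coding bases 138 to 197 of Orm1 and Orm2 and 135 to 194 of Orm3, read 5′ to 3′, and capitals mark bases that differ from the base held by the other copies or at which all 3 differ.
Orm1: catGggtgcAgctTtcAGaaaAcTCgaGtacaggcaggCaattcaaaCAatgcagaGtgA
Orm2: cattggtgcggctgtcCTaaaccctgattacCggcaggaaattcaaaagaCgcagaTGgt
Orm3: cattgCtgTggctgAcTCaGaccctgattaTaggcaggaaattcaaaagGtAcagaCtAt

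The upstream sequences of Orm2 and Orm3 are shown because Orm2 was called higher in MTX+nitrate than in control livers and Orm3 was not, although the difference between these copies was not tested. RefSeq (GRCm38.p6) gave a promoter window for 5 of the 7 genes. The 250 bases before the annotated start of Orm2 lie at chr4:63362199-63362448 and those of Orm3 at chr4:63355908-63356157, both on the plus strand. The 2 sequences were 89.4% identical over 245 aligned bases. Capitals mark the C/EBP motif TTGCNNAA.
Orm2: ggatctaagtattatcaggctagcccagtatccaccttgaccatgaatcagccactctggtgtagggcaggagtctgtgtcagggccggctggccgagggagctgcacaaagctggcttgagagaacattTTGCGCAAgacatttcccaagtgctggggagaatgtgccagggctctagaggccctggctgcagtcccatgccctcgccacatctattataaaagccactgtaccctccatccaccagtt
Orm3: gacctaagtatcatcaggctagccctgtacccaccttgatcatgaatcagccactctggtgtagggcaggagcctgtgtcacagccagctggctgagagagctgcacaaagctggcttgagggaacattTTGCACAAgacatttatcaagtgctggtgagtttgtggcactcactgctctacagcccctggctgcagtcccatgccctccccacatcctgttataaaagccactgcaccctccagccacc

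Motifs were searched on both strands in windows of 250 bases before to 50 bases after each start. The C/EBP motif was found 120 bases before the start in Orm2 and 121 bases before it in Orm3. It was also present in the windows of Lcn2 and Hpx and in 1 of the 2 windows of Cp, and 10.8% of all 32851 promoter windows held it. The glucocorticoid receptor half-site TGTTCT lay 128 bases before the start of Orm2, on the opposite strand and close to the C/EBP match, and the Orm3 window had no match; 19% of all windows held it. A half-site was also found in the other Cp window. The IL-6 type II motif CTGGGAA was matched in Orm3 alone, after the start, against 11.1% of all windows. No window of the 5 genes held the STAT motif TTCNNNGAA, present in 8.3% of all windows, or the kappaB motif, present in 8.46%. None of these motifs overlaps another in these windows, and a match describes letters only.

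Hp and Hpx had the highest levels of the 7 genes per kilobase of transcript in all 3 groups. Hp averaged 2692 ± 395 CPM per kb in MTX+nitrate, 4225 ± 1055 in MTX and 1560 ± 238 in control livers, and Hpx averaged 2318 ± 358, 3736 ± 1134 and 1807 ± 293 CPM per kb in the same groups (SD, n = 5 each). Per kilobase, Hpx stood below Hp in each of the 10 treated libraries and above it in each of the 5 control libraries, although the ranges of the genes overlapped within every group. The order in treated libraries depends on the length taken for Hp, 1345 bases here and 1606 as deposited, so a swap of rank is not shown. Orm1 followed at 745 ± 28.3, 1090 ± 255 and 590 ± 67.6 CPM per kb, and Cp at 389.8 ± 22.2, 520 ± 71.5 and 424 ± 31.5 CPM per kb. Lcn2 stood at 77.4 ± 45.9, 251 ± 165 and 8.66 ± 1.56 CPM per kb. Orm2 stood at 42.0 ± 15.5, 63.5 ± 41.3 and 6.18 ± 2.18, and its mean ± SD range overlapped that of Lcn2 in all 3 groups. Orm3 was the lowest, at 4.66 ± 3.43, 10.1 ± 4.08 and 2.95 ± 1.67 CPM per kb. Together the 7 genes took 0.968 ± 0.113% of all counts in MTX+nitrate, 1.37 ± 0.337% in MTX and 0.7102 ± 0.0733% in control livers.

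**Figure D1:**
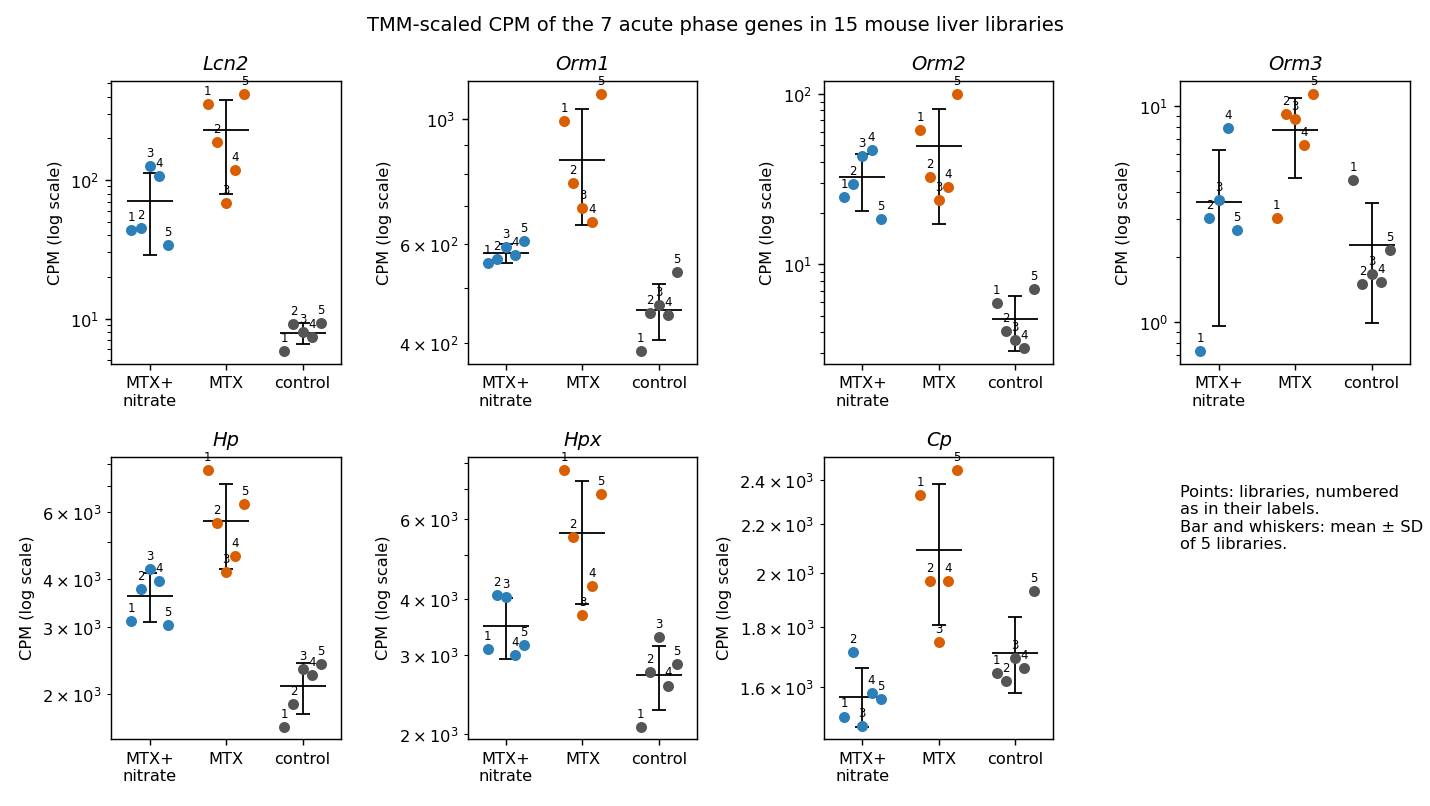
TMM-scaled CPM (log axis) of each of the 7 genes in the MTX+nitrate, MTX and control libraries. Points are libraries with their label numbers, and bars with whiskers are the mean ± SD of 5 libraries. MTX libraries 1 and 5 are the highest for Lcn2, Orm1, Orm2, Hp, Hpx and Cp, and control libraries lie below all MTX libraries for all genes but Orm3 and Cp.

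For 5 of the 7 genes, all but Orm3 and Cp, the lowest MTX library exceeded the highest control library. Of all genes tested, 3.15% had this separation, and nothing is read from that count, since these genes were selected on this contrast. Their median log2 fold change for MTX against control was 1.44, beside -0.00074 over all genes tested. With nitrate added to MTX, 5 of the 7 genes fell against MTX alone, namely Lcn2, Orm1, Hp, Hpx and Cp, where 1.94% of all genes were called lower. None of the 7 rose, also at an unadjusted p under 0.05 or in DESeq2 or limma-voom, where 2.37% of all genes were called higher. The median log2 fold change for MTX+nitrate against MTX was -0.65, beside 0.0084 over all genes. For Orm1 and Cp all MTX+nitrate libraries lay below all MTX libraries, a separation shown by 2.95% of genes.

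The MTX libraries that enter this second comparison are those on which the genes were chosen, so a lower level in any other group was favoured by the choice. The number called was 0 in a fit over the 2 compared groups alone and 0 with replicate number as a block. It was 2 with gene length and GC trends as offsets, 5 in DESeq2 and 4 in limma-voom. It also depended on single libraries. Without MTX library 1 or without MTX+nitrate library 1, 0 of the 7 genes were called lower. Without MTX+nitrate library 2 there was 1, and without MTX library 2 or 5 or MTX+nitrate library 3, 4 or 5 there were 2. Without any other single library 4 or 5 were called. The fold change of each gene was below 0 in all of these fits.

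MTX+nitrate against control shares its control libraries with the contrast that chose the genes. A level above control was therefore favoured by the choice. Here 3 genes rose, namely Lcn2, Orm2 and Hp, where 1.41% of all genes tested were called higher. In 4 genes, these 3 and Orm1, the lowest MTX+nitrate library exceeded the highest control library, as it did in 2.64% of all genes. The median log2 fold change of the 7 genes was 0.66, beside 0.01 over all genes tested. Without control library 1, 2 of the 7 were called, and leaving out any other library kept the count at 3.

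**Figure D2:**
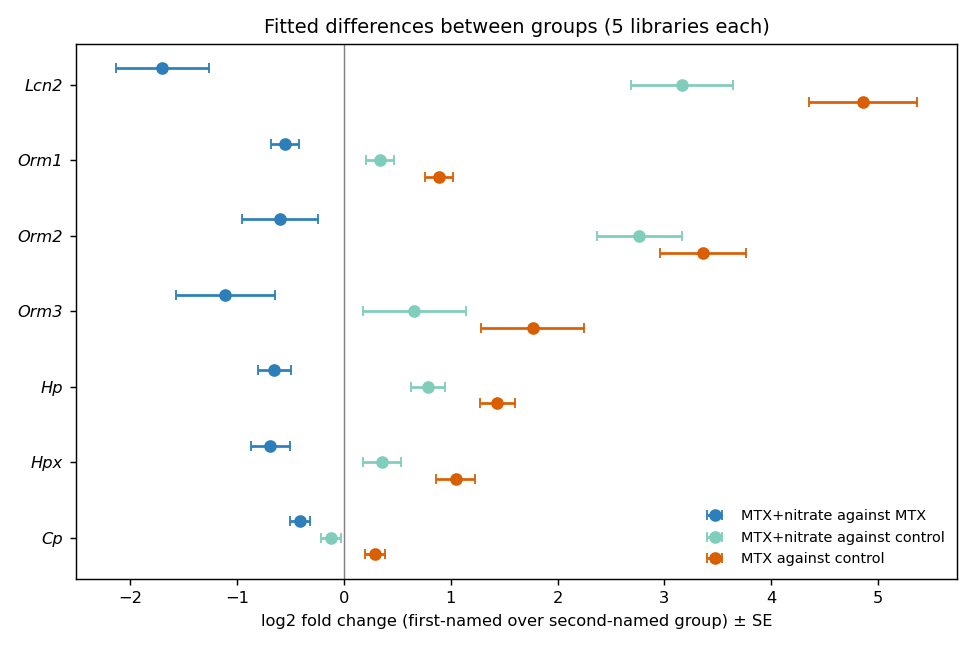
Log2 fold change ± SE of each gene from the edgeR fit over 15 libraries, in blue for MTX+nitrate against MTX, green for MTX+nitrate against control and orange for MTX against control; the vertical line marks no difference. All 7 values lie below 0 for MTX+nitrate against MTX, and the values of Lcn2 and Orm2 against control exceed 2.7 in both treated groups.

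Lcn2, on chromosome 2 (chr2:32384633-32388252, minus strand), had the widest range between groups. In MTX+nitrate libraries 1 to 5 it had 43.6, 44.8, 126, 106 and 33.8 CPM. The 5 MTX libraries held 353, 190, 68.2, 119 and 420 CPM, and the 5 control libraries held 5.84, 9.18, 7.99, 7.31 and 9.29 CPM. MTX+nitrate libraries 3 and 4 lay within the MTX range, above MTX library 3, and the other 3 lay below it, while both treated groups were clear of control. Lcn2 was 29.0-fold higher in MTX than in control livers (log2 fold change 4.86 ± 0.51). It was 3.24-fold lower in MTX+nitrate than in MTX livers (log2 fold change -1.70 ± 0.44, adjusted p = 0.0393), and still 8.95-fold higher than in control livers (3.16 ± 0.48, adjusted p = 0.0033). The call against MTX was lost without MTX library 1, 2 or 5 or without MTX+nitrate library 1, 2 or 5, with adjusted p-values up to 0.0878, whereas that against control was kept without each of the 15 libraries in turn, at adjusted p-values of at most 0.0153.

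Lipocalin 2 is also stored in neutrophil granules, so neutrophil and monocyte markers were set beside it. The summed level of 13 neutrophil markers was 7.34, 4.03, 4.57, 5.33 and 3.61 CPM in MTX+nitrate libraries 1 to 5. It was 33.6, 11.6, 2.45, 4.62 and 23.2 CPM in MTX libraries 1 to 5, and ran from 3.84 to 10.6 CPM in control libraries. The 3 MTX libraries with the highest Lcn2 (1, 2 and 5) were thus the 3 with the highest neutrophil sum. MTX library 3, with the lowest neutrophil sum of all 15 libraries, had 68.2 CPM of Lcn2, which is above every control library.

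Only 4 of the 13 neutrophil markers passed the filter on low counts, 2 of which fell in MTX+nitrate against MTX in edgeR's test. In that comparison limma-voom called 0 of the 4, DESeq2 called 3 lower, and all 4 were lower at an unadjusted p under 0.05. Of all 14219 genes tested, 3184 had such a p there, in either direction. In MTX against control edgeR and limma-voom called 0 of them, DESeq2 called 2 higher, and 2 were higher at an unadjusted p under 0.05. The 2 that fell were S100a8, the calgranulin A gene (log2 fold change -2.96 ± 0.76, adjusted p = 0.0395), and Mmp9, the gelatinase B gene (-3.24 ± 0.73, adjusted p = 0.025). The S100a8 call was lost without MTX library 1, 2 or 5 or any 1 of the MTX+nitrate libraries, and the Mmp9 call without MTX library 1 or MTX+nitrate library 2 or 3. Ly6g, which defines mouse neutrophils, was at most 0.577 CPM in MTX+nitrate, 0.37 in MTX and 0.719 in control libraries, and was at 0 in some libraries of both treated groups. The granule genes Mpo and Camp had means of at most 0.201 CPM in each group, highest in control. Ly6g, Ngp and Ltf went the other way from S100a8 and Mmp9, with their lowest means in MTX livers. Their means were 0.305, 0.280 and 0.357 CPM in MTX+nitrate, 0.168, 0.157 and 0.265 in MTX and 0.423, 0.614 and 0.925 in control livers. S100a9, Mmp8, Csf3r, Cxcr2, Retnlg and Elane had their highest means in MTX, as S100a8 and Mmp9 did. The 7 monocyte markers summed to 21.0 to 62.5 CPM in MTX+nitrate, 21.8 to 134 in MTX and 26.7 to 38.5 in control libraries. Of these, Itgax and F13a1 rose in MTX against control in edgeR's test (log2 fold changes 2.23 ± 0.46 and 3.63 ± 0.98, adjusted p = 0.0205 and 0.0493), though the Itgax call was lost without MTX library 1 and the F13a1 call without any 1 library but MTX+nitrate library 3 or 4 or MTX library 3. In this comparison limma-voom called 0 monocyte markers and DESeq2 called 3 higher. In MTX+nitrate against MTX all 7 lay below 0, with a median log2 fold change of -1.27; edgeR and limma-voom called 0, DESeq2 called 1 lower, and 4 were lower at an unadjusted p under 0.05. The 7 Kupffer cell markers summed to 170 to 288 CPM in MTX+nitrate, 232 to 308 in MTX and 186 to 354 in control libraries. The part of these cells in the Lcn2 levels was not tested.

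Markers of other liver cells were set beside the 7 genes as well. All 5 sinusoidal endothelial markers lay above 0 in MTX+nitrate against MTX, with a median log2 fold change of 0.46, and all 5 lay below 0 in MTX against control, with a median of -0.41. The summed level of the 5 was 166 to 224 CPM in MTX+nitrate, 113 to 157 in MTX and 143 to 212 in control libraries, so every MTX+nitrate library was above every MTX library. Flt4, the vascular endothelial growth factor receptor 3 gene, and Oit3 rose in MTX+nitrate against MTX (0.73 ± 0.16 and 0.66 ± 0.15, adjusted p = 0.024 and 0.0245), where limma-voom called 2 and DESeq2 called 3 of the 5 higher. Both calls were lost without MTX library 1 or 2, the Flt4 call also without MTX+nitrate library 2 and the Oit3 call without MTX+nitrate library 3. In MTX against control edgeR and limma-voom called 0 of them and DESeq2 called 3 lower. Of 5 cholangiocyte markers 4 were tested, and Sox9, a transcription factor gene of bile duct cells, rose in MTX against control (1.20 ± 0.32, adjusted p = 0.0467). That call was kept in 4 of the 15 fits that left out a library, and limma-voom called 0. The cholangiocyte sum was 4.85 to 19.2 CPM in MTX+nitrate, 9.03 to 30.1 in MTX and 7.40 to 14.2 in control libraries. The part of these cells in the values of the 7 genes was not tested.

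**Figure D3:**
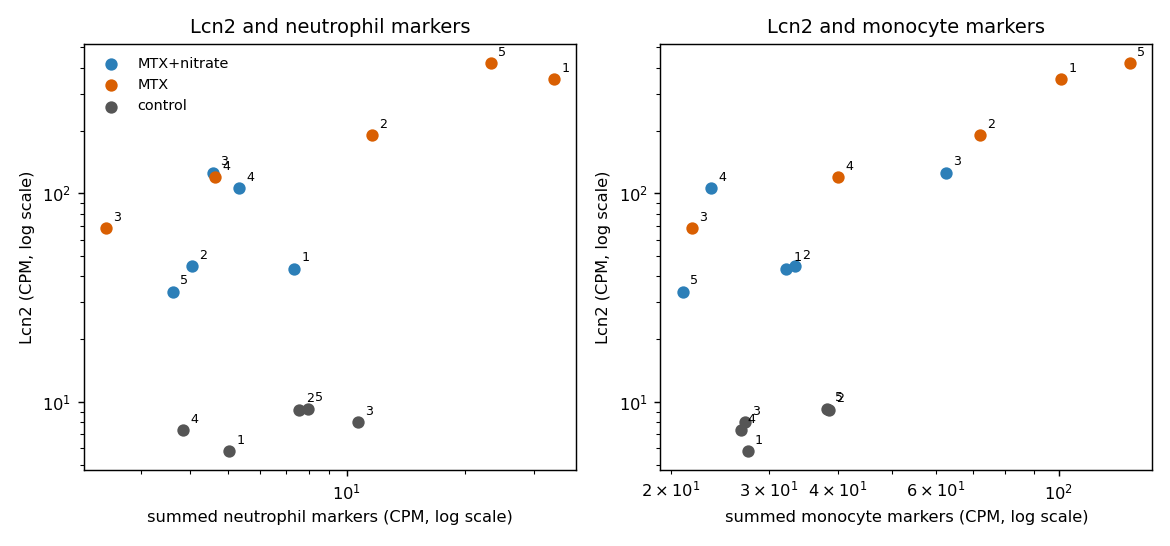
Lcn2 (CPM, log axis) against the summed CPM (log axis) of 13 neutrophil markers (left) and 7 monocyte markers (right) in the 15 libraries, coloured by group and labelled by library number. MTX libraries 1, 2 and 5 lie at the upper right of both plots, and all 10 treated libraries lie above the control libraries in Lcn2, also where their marker sums overlap those of control.

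Orm1, the major orosomucoid of these livers, varied least in MTX+nitrate livers, where its coefficient of variation was the lowest of the 7 genes; in MTX and in control livers that of Cp was lower, at 13.8% and 7.41%. The MTX+nitrate libraries held 554, 563, 591, 572 and 608 CPM, a coefficient of variation of 3.8%. The MTX libraries held 993, 769, 696, 656 and 1110 CPM, with a coefficient of variation of 23.4%. Control libraries held 387, 452, 466, 447 and 533 CPM, with 11.5%. The 3 groups did not overlap: MTX+nitrate lay between MTX and control. Orm1 was 1.85-fold higher in MTX than in control livers (log2 fold change 0.89 ± 0.13). It fell 1.46-fold in MTX+nitrate against MTX (-0.55 ± 0.13, adjusted p = 0.0302), and that call was lost without MTX library 1 or without MTX+nitrate library 1, 2, 3 or 4. Against control its log2 fold change in MTX+nitrate was 0.34 ± 0.13, which did not pass (adjusted p = 0.177). The counts of the 3 orosomucoids were also summed, so that it does not matter to which copy a counted read was assigned. Reads left out of the counting because they match more than 1 copy would not be recovered in this way. For the sum, the log2 fold change was -0.56 for MTX+nitrate against MTX (adjusted p = 0.0325) and 0.40 for MTX+nitrate against control (adjusted p = 0.128).

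Orm2 was the orosomucoid called higher in MTX+nitrate than in control livers. MTX+nitrate libraries held 24.9, 29.7, 43.1, 46.6 and 18.4 CPM. MTX libraries held 61.2, 32.6, 23.9, 28.3 and 100.1 CPM, and control libraries held 5.89, 4.06, 3.61, 3.21 and 7.19 CPM. The treated groups overlapped each other, and both lay above control; MTX libraries 1 and 5 alone exceeded the highest MTX+nitrate library. Orm2 was 10.3-fold higher in MTX than in control livers (log2 fold change 3.36 ± 0.40) and 6.80-fold higher in MTX+nitrate than in control livers (2.77 ± 0.39, adjusted p = 0.0026), a call kept without each of the 15 libraries in turn. Between MTX+nitrate and MTX the log2 fold change was -0.60 ± 0.35 (adjusted p = 0.339), with a 95% interval of -1.37 to 0.17. That interval holds the value of Orm1, so a difference between these copies in this comparison was not shown, and it was not tested.

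Orm2 took a larger share of the orosomucoid counts in the treated livers. It made up 5.28 ± 1.83% of the summed Orm1, Orm2 and Orm3 counts in MTX+nitrate, 5.08 ± 1.97% in MTX and 1.03 ± 0.349% in control livers (SD, n = 5 each). The lowest treated library stood at 2.92%, above the highest control library at 1.48%, while the treated groups overlapped over nearly their whole range. These genes were chosen with MTX against control known, and the share was not tested.

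Orm3 was close to the low end of what was tested, with 14 to 188 counts per library. MTX+nitrate libraries held 0.734, 3.02, 3.68, 7.92 and 2.65 CPM. MTX libraries held 3.02, 9.14, 8.73, 6.59 and 11.4 CPM, and control libraries held 4.54, 1.502, 1.66, 1.53 and 2.16 CPM. All 3 groups overlapped, and MTX library 1, the highest or next to highest for the other 6 genes, was the lowest MTX library for Orm3. Its log2 fold change for MTX over control was 1.77 ± 0.48. It was -1.11 ± 0.47 for MTX+nitrate against MTX (adjusted p = 0.17) and 0.66 ± 0.48 for MTX+nitrate against control (adjusted p = 0.517), and neither was called. The pseudogene Gm11212, which lies between Orm1 and Orm3, reached at most 0.275 CPM in any library.

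**Figure D4:**
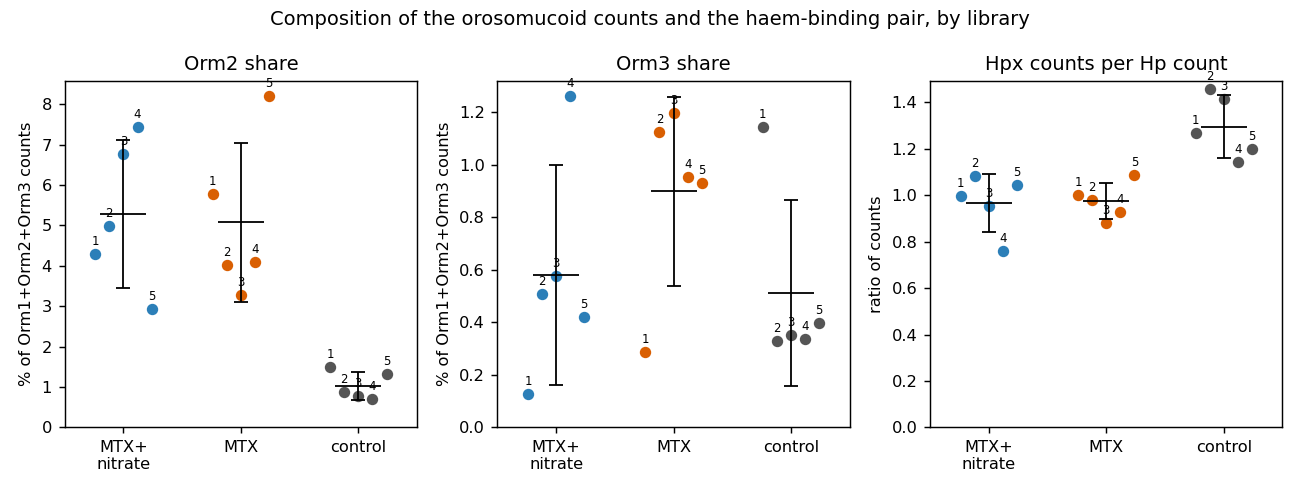
Share of the summed Orm1, Orm2 and Orm3 counts taken by Orm2 (left) and Orm3 (middle), in percent, and the ratio of Hpx to Hp counts (right), in MTX+nitrate, MTX and control libraries. Points are libraries with their label numbers, and bars with whiskers are the mean ± SD of 5. The Orm2 share is above 2.9% in all treated libraries and below 1.5% in all control libraries.

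Hp, on chromosome 8 (chr8:109575128-109579172, minus strand), was among the most abundant transcripts described here. Its MTX+nitrate libraries held 3103, 3773, 4244, 3947 and 3034 CPM. MTX libraries held 7741, 5599, 4175, 4604 and 6293 CPM, and control libraries held 1644, 1886, 2322, 2245 and 2395 CPM. MTX+nitrate library 3 lay just above MTX library 3, the treated groups overlapped in that pair alone, and both lay above control. Hp was 2.71-fold higher in MTX than in control livers (log2 fold change 1.44 ± 0.16). In MTX+nitrate it fell 1.57-fold against MTX (-0.65 ± 0.16, adjusted p = 0.0319) and was 1.73-fold higher than in control (0.79 ± 0.16, adjusted p = 0.0206). The call against MTX was lost without MTX library 1, 2 or 5 or MTX+nitrate library 1, 2, 4 or 5. It was also lost with a replicate block (adjusted p = 0.0843) and in a fit over the 2 compared groups (adjusted p = 0.0602). The call against control was lost without control library 1 (adjusted p = 0.0627) or with a replicate block (adjusted p = 0.0597).

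Hpx, on chromosome 7 (chr7:105591613-105600137, minus strand), had levels close to those of Hp. MTX+nitrate libraries held 3090, 4079, 4038, 3002 and 3164 CPM. MTX libraries held 7736, 5472, 3680, 4275 and 6842 CPM, and control libraries held 2081, 2747, 3285, 2567 and 2866 CPM. MTX+nitrate libraries 2 and 3 lay above MTX library 3, so the treated groups overlapped, and the other 3 lay inside the control range. Hpx was 2.07-fold higher in MTX than in control livers (log2 fold change 1.05 ± 0.18). It fell 1.61-fold in MTX+nitrate against MTX (-0.69 ± 0.18, adjusted p = 0.0414), a call kept in 4 of the 15 fits that left out a library, those without MTX library 3 or 4 or control library 1 or 3. In limma-voom it was not called (adjusted p = 0.0514). Against control its log2 fold change in MTX+nitrate was 0.36 ± 0.18 (adjusted p = 0.313), with a 95% interval of -0.03 to 0.75.

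The ratio of Hpx to Hp was lower in the treated livers than in control livers. There were 0.966 ± 0.125 Hpx counts per Hp count in MTX+nitrate, 0.975 ± 0.0776 in MTX and 1.30 ± 0.136 in control livers (SD, n = 5 each). The highest treated library stood at 1.09 and the lowest control library at 1.14, so treated and control libraries did not overlap. Both genes were chosen with MTX against control known, and the ratio was not tested. The ratio in MTX+nitrate differed from that in MTX by less than the spread between libraries. The transcripts of 5 erythroid markers, genes of globins and haem synthesis, summed to 60.7 to 159 CPM in MTX+nitrate, 47.9 to 109 in MTX and 48.3 to 183 in control libraries, so these ranges overlapped. In control, Alas2 reached 139 CPM in its highest library, against a median of 13.1. All 4 markers tested lay above 0 in MTX+nitrate against MTX (median log2 fold change 0.88) and below 0 in MTX against control (-0.46). In the first comparison edgeR, DESeq2 and limma-voom called 0, and 2 were higher at an unadjusted p under 0.05.

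Cp, on chromosome 3 (chr3:19957054-20009145, plus strand), varied least between groups. MTX+nitrate libraries held 1510, 1715, 1484, 1581 and 1562 CPM. MTX libraries held 2331, 1969, 1748, 1970 and 2448 CPM, and control libraries held 1644, 1619, 1693, 1660 and 1931 CPM. Every MTX+nitrate library lay below every MTX library, by a narrow margin between MTX+nitrate library 2 and MTX library 3, and control overlapped both. Cp was 1.22-fold higher in MTX than in control livers (log2 fold change 0.29 ± 0.09). It fell 1.33-fold in MTX+nitrate against MTX (-0.41 ± 0.09, adjusted p = 0.0262), a call lost without MTX library 1 or MTX+nitrate library 1 or 3. The log2 fold change for MTX+nitrate against control was -0.12 ± 0.09 (adjusted p = 0.539), with a 95% interval of -0.33 to 0.08. Cp overlaps Hps3 on the other strand, and the strand setting of the counting is not given in the sources used here; Hps3 had 8.13 to 11.1 CPM in all libraries, far below Cp.

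The libraries of a group were ordered alike across most of the genes. Among MTX libraries, 1 and 5 were the highest for Lcn2, Orm1, Orm2, Hp, Hpx and Cp, and library 3 or 4 was the lowest for each of these 6. Among MTX+nitrate libraries, 3 and 4 were the highest for Lcn2, Orm2 and Hp, but not for Orm1, Hpx or Cp. Among control libraries, library 5 was the highest for Lcn2, Orm1, Orm2, Hp and Cp.

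Other genes with like profiles were sought over the 15 libraries, by the root mean square (RMS) difference of log2 CPM centred on each gene's mean, among 11508 genes at a mean of at least 2 CPM. Genes in these profiles share their libraries, group differences and scaling, and no test is given. Nearest to Lcn2 were Saa1, an acute phase apolipoprotein (RMS difference 0.55, beside the 2.02 by which Lcn2 itself varied), Orm2 (0.73) and Thbs1, the gene of the matricellular protein thrombospondin-1 (0.81). Orm2 had the same genes as its neighbours, with Thbs1 at 0.70 and Saa1 at 0.79. Hp was nearest to Lrg1, the leucine-rich alpha-2-glycoprotein gene (0.20), which averaged 602 ± 117 CPM in MTX+nitrate, 788 ± 254 in MTX and 287 ± 40.4 in control livers. Parvg followed at 0.24 and Hpx at 0.24.

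The other orosomucoids had different neighbours from Orm2. Hpx was nearest to Orm1 (0.19), then to Fmnl1 (0.22) and Hp, while Orm1 was nearest to the lectin receptor gene Cd302 (0.15), the Arp2/3 subunit gene Arpc1b (0.16) and the tetraspanin gene Cd9 (0.18). Among the genes nearest to Cp were Rab32 (0.11) and Cpb2, the gene of a plasma carboxypeptidase (0.12). Orm3 was nearest to the cytochrome P450 genes Cyp2b10 (0.59) and Cyp2c29 (0.69) and to Zbtb16 (0.69), none of them an acute phase gene, beside its own variation of 1.07. Cyp2b10 averaged 5.65 ± 3.98 CPM in MTX+nitrate, 15.0 ± 5.34 in MTX and 4.03 ± 2.14 in control livers.

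A list of 24 other positive acute phase genes, chosen with earlier results known, was set beside the 7. Its counts of calls are therefore given as a description. In MTX against control 14 of the 24 rose and none fell, where 2.06% of all genes tested were called higher and 1.6% lower. Their median log2 fold change was 0.54. The serum amyloid genes Saa2 (6.27 ± 0.68, adjusted p = 0.00023) and Saa1 (4.87 ± 0.51, adjusted p = 0.00022), the fibrinogen alpha chain gene Fga (0.60 ± 0.11, adjusted p = 0.0143) and the inter-alpha-trypsin inhibitor gene Itih4 (0.65 ± 0.13, adjusted p = 0.0195) had the lowest p-values. Saa1, Saa2 and Fga kept their calls without each of the 15 libraries in turn, and Itih4 lost its call without MTX library 1 or control library 1. The count of 14 fell to 3 without MTX library 1, to 5 without MTX library 2, and to 4, 6 and 8 without control library 1, 3 and 4.

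In MTX+nitrate against MTX, 3 of these 24 genes fell and none rose, with a median log2 fold change of -0.35. They were Serpina3m, a serine protease inhibitor (-0.54 ± 0.11, adjusted p = 0.022), Crp, C-reactive protein (-0.42 ± 0.10, adjusted p = 0.025), and Il1rn, the interleukin-1 receptor antagonist (-2.44 ± 0.54, adjusted p = 0.025). Without MTX+nitrate library 2 or MTX library 1 the count was 1. In MTX+nitrate against control 3 rose, namely Saa1 (3.82 ± 0.48, adjusted p = 0.00087), Saa2 (4.79 ± 0.64, adjusted p = 0.0012) and Saa3 (2.17 ± 0.56, adjusted p = 0.0497), and none fell, where 0.992% of all genes were called lower; the median log2 fold change was 0.29. In none of the 3 comparisons was any of the 24 genes changed in the opposite direction at an unadjusted p under 0.05, in DESeq2 or in limma-voom. Saa3 kept its call only without MTX+nitrate library 5 or MTX library 3 or 5, out of 15 fits that each left out 1 library.

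**Figure D5:**
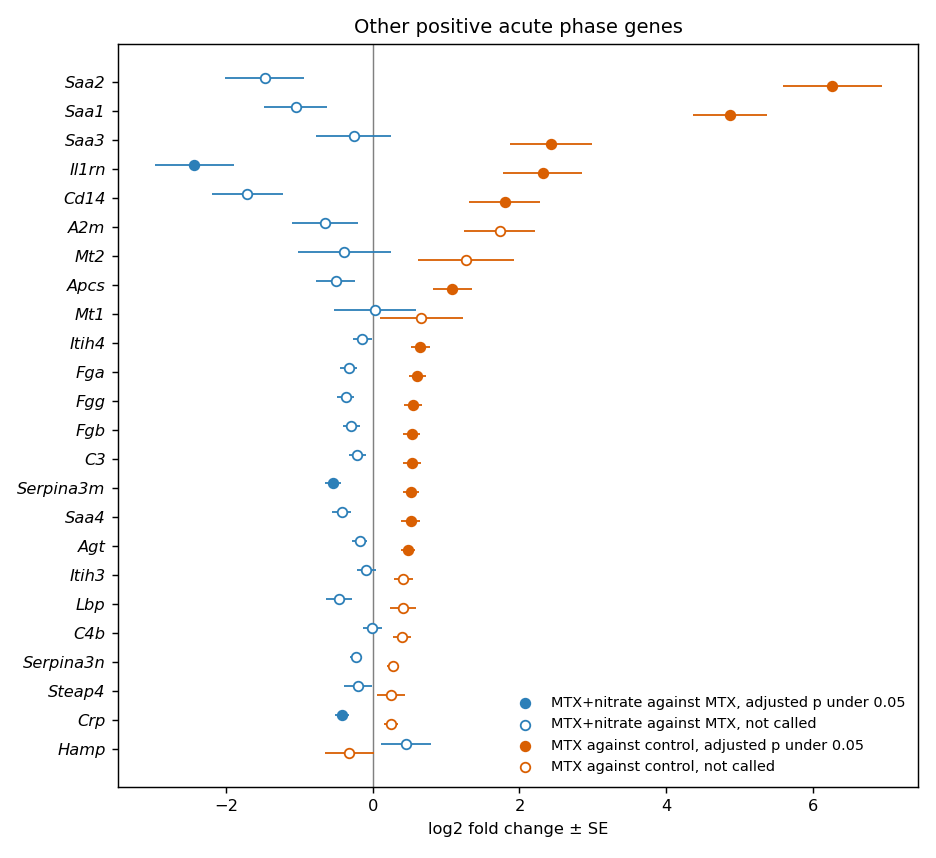
Log2 fold change ± SE of 24 other positive acute phase genes in MTX+nitrate over MTX (blue) and MTX over control (orange), with genes in the order of their MTX-against-control values; filled points have an adjusted p under 0.05. In MTX+nitrate over MTX 2 of the 24 genes lie above 0, and in MTX over control 23 do; the comparisons share the MTX libraries.

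Negative acute phase genes, whose products fall in plasma during inflammation, gave no calls. In edgeR's test 0 of 9 were called in each of the 3 comparisons, as in limma-voom, while DESeq2 called 1 lower in MTX+nitrate against MTX and 0 in the others. Their median log2 fold change was -0.19 for MTX+nitrate over MTX, -0.04 for MTX+nitrate over control and 0.18 for MTX over control. At an unadjusted p under 0.05, Rbp4 and Gc were lower in MTX+nitrate than in MTX (log2 fold changes -0.28 ± 0.11 and -0.25 ± 0.08). At the same threshold, Ahsg, Fetub and Gc were higher in MTX than in control livers (0.26 ± 0.12, 0.28 ± 0.11 and 0.18 ± 0.08). The count was 0 for MTX+nitrate against control. Over all 14219 genes tested it was 3184 for MTX+nitrate against MTX, 2499 for MTX+nitrate against control and 3117 for MTX against control. Alb, the albumin gene, had log2 fold changes of -0.19 ± 0.13, -0.04 ± 0.13 and 0.14 ± 0.13 in the same 3 comparisons (adjusted p = 0.407, 0.898 and 0.542).

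Of 20 genes whose products handle the same iron and haem, 19 were tested. Fth1, the ferritin heavy chain gene, fell in MTX+nitrate against MTX (-0.28 ± 0.07, adjusted p = 0.0319) and rose in MTX against control (0.28 ± 0.07, adjusted p = 0.0344). No other gene of the list was called in any comparison in edgeR's test. For MTX+nitrate against control DESeq2 called 1 and limma-voom 0, and 3 had an unadjusted p under 0.05, as did 2499 of all 14219 genes tested. When each of the 15 libraries was left out in turn, Fth1 stayed called 7 times for MTX+nitrate against MTX, not without MTX+nitrate library 1, 2, 4 or 5 or MTX library 1, 2, 3 or 4. For MTX against control it stayed called 6 times, not without any 1 control library or MTX library 1, 2, 3 or 4. Hmox1, the inducible haem oxygenase, had 12.3 ± 3.50 CPM in MTX+nitrate, 15.5 ± 6.37 in MTX and 13.2 ± 3.67 in control livers. Tfrc, the transferrin receptor gene, had 32.2 ± 10.9, 27.0 ± 12.3 and 17.1 ± 2.07 CPM (adjusted p = 0.0765 for MTX+nitrate against control). Of 8 other genes of the lipocalin fold 6 were tested, and Ambp, which encodes alpha-1-microglobulin, rose in MTX against control (0.36 ± 0.08, adjusted p = 0.0253); it lost that call without MTX library 1 or 2 or control library 1, 4 or 5, and no gene of this list was called in the other comparisons by edgeR, DESeq2 or limma-voom, although 3 were lower in MTX+nitrate than in MTX at an unadjusted p under 0.05.

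Among 27 cytokines, receptors and transcription factors upstream of acute phase genes, 24 were tested, and Il6, Il22 and Tnf were below the filter. Il6 had at most 0.0982 CPM in any library. In MTX+nitrate against MTX, Cebpb, a C/EBP factor induced in inflammation, rose (0.72 ± 0.14, adjusted p = 0.0191), with 161 ± 27.5 CPM in MTX+nitrate, 98.0 ± 21.3 in MTX and 119 ± 14.4 in control livers. Cebpa, the C/EBP factor of resting hepatocytes, fell in the same comparison (-0.46 ± 0.11, adjusted p = 0.0339), with 411 ± 52.8, 566 ± 59.5 and 560 ± 75.8 CPM. The Cebpb call was kept without each of the 15 libraries in turn and the Cebpa call was lost without MTX+nitrate library 1, 2, 3 or 5 or MTX library 1, 2, 3 or 4. In MTX against control, Il1b and Hnf4a rose (1.86 ± 0.45, adjusted p = 0.0329, and 0.43 ± 0.11, adjusted p = 0.0345) and Nr3c1, the glucocorticoid receptor gene, fell (-0.48 ± 0.11, adjusted p = 0.0273). In MTX+nitrate against control, Cebpd rose (1.12 ± 0.26, adjusted p = 0.0372), and Lifr, Nr3c1 and Cebpa fell (-0.81 ± 0.18, -0.46 ± 0.11 and -0.45 ± 0.11, adjusted p = 0.0291, 0.0372 and 0.0481).

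Most of these counts of upstream genes depended on single libraries. The 2 genes higher in MTX than in control became 0 without MTX library 1 or 2 or control library 1 or 3, and 1 without MTX library 3 or 4 or control library 2, 4 or 5. Nr3c1 was not called in that comparison without MTX library 1, 2 or 4 or control library 1. The 3 genes lower in MTX+nitrate than in control became 0 without MTX+nitrate library 2, 4 or 5 or control library 1 or 5, and 1 without MTX+nitrate library 3 or control library 3 or 4. Cebpd was not called without any 1 control library or MTX+nitrate library 1, 2, 3 or 5. Stat3 and Socs3, a STAT3 target that feeds back on the pathway, were not called in any comparison; Socs3 had 11.7 ± 4.00 CPM in MTX+nitrate, 14.0 ± 10.3 in MTX and 7.05 ± 2.55 in control livers.

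Glucocorticoid-induced genes were compared because orosomucoid genes respond to glucocorticoids, as is known from rat liver. Of 10 genes, 3 rose and 1 fell in MTX+nitrate against MTX. Those that rose were the kinase gene Sgk1 (1.61 ± 0.16, adjusted p = 9.87e-05), the clock gene Per1 (2.68 ± 0.50, adjusted p = 0.0151) and Tsc22d3, which encodes GILZ (1.02 ± 0.23, adjusted p = 0.0278), and Zbtb16 fell (-1.19 ± 0.26, adjusted p = 0.025). In the same comparison 5 of the 7 acute phase genes were lower. Sgk1 averaged 41.9 ± 6.27 CPM in MTX+nitrate, 13.7 ± 2.93 in MTX and 15.0 ± 2.74 in control livers, and Sgk1 and Per1 kept their calls without each of the 15 libraries in turn. Tsc22d3 was lost without MTX library 1, and Zbtb16 without MTX library 3 or MTX+nitrate library 1, 2 or 3.

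Against control, 4 of these 10 rose in MTX+nitrate, namely Tsc22d3 (2.10 ± 0.24, adjusted p = 0.00042), Sgk1 (1.48 ± 0.16, adjusted p = 0.00031), the tyrosine aminotransferase gene Tat (1.92 ± 0.28, adjusted p = 0.0028) and Per1 (2.11 ± 0.48, adjusted p = 0.0327). In MTX against control 3 rose, namely Zbtb16 (1.51 ± 0.27, adjusted p = 0.0099), Tsc22d3 (1.08 ± 0.24, adjusted p = 0.0243) and Tat (1.10 ± 0.27, adjusted p = 0.0345). That count of 3 became 1 without MTX library 2 or 4 or control library 1, 3 or 4. The log2 fold change was above 0 for 8 of the 10 in MTX+nitrate against control and for 7 in MTX against control. At an unadjusted p under 0.05, 5 were higher and 1 lower in the first comparison, and 3 higher and 1 lower in the second. DESeq2 called 4 higher and 1 lower in the first, and 3 higher in the second. With limma-voom, 4 and 3 were called higher and none lower. Tat had 2051 ± 645 CPM in MTX+nitrate, 1163 ± 421 in MTX and 543 ± 171 in control livers.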

How the data were processed

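Read counts were used as the authors deposited them: raw whole numbers, 1 row per Ensembl gene and 1 column per library. GRCm38 (mm10) is the build named in the submitters' processing notes; which aligner and counter were used, and with what strand setting, is not given in the sources used here. Per the labels' protocols, 1.3 µg of total RNA went into each SMARTer library. All 15 columns were matched to libraries by their labels, and groups were taken from the treatment labels. Within groups, the counts of each pair of libraries differed by 21.6 to 58.4 times the sampling variance, so no library was treated as a duplicate.

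Counts were filtered with filterByExpr and scaled by TMM, and a quasi-likelihood model over all 15 libraries, with no covariate and 12 residual degrees of freedom, was fitted in edgeR 4.0.16 (R 4.3.3). Adjusted p-values come from this fit unless another fit is named beside them. The common biological coefficient of variation was 0.223, and genes with few counts, such as Orm3, carry counting error beside it. On simulated counts the fit recovered 28 of 100 genes changed 1.5-fold and 70 of 100 changed 2-fold for MTX+nitrate against MTX (14001 genes tested, 0 false calls). It recovered 34 and 72 for MTX+nitrate against control (14016 genes, 6 false calls), and 25 and 68 for MTX against control (14027 genes, 5 false calls).

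The 7 genes and all gene lists were chosen with earlier results of these data known. From each list the text names up to 4 called genes with the lowest p in a comparison, or 2 where none was called in any comparison. Alb, Ahsg, Fetub, Hmox1, Tfrc, Stat3, Socs3, Il6, Il22, Tnf, the cell type markers and the genes beside or across from a member were named after their values were seen. For each of the 7 genes, the 3 other genes with the nearest log2 profile (prior count 2) are named, except 1 gene that is not reported here. Levels per kb use the length of the principal GENCODE M21 transcript. Alternatives were other size factors, filters and library sizes, a replicate block, a fit over 2 groups, a stricter threshold, summed orosomucoid counts, DESeq2 1.42.0, limma-voom (limma 3.58.1), offsets for length and GC trends (mgcv 1.9.3) and leaving out each library. Orosomucoids were compared over nucleotides, as protein sequences were not used here.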

Additional observations from a re-analysis of the deposited data

Results flagged for a closer look

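In 2 of the 21 sets of 5 libraries (7 genes in 3 groups), 1 library stood apart from its group by Dixon's criterion for a single extreme value, and chance alone marks about 1 in 20 such sets. Orm3 in control library 1 had 4.54 CPM, against 2.16 CPM in the next highest control library. Cp in control library 5 had 1931 CPM, against 1693 CPM in the next highest control library. Both were the highest library of their group.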

How the results depend on the processing

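No fold change of the 7 genes changed its sign in any of the alternatives run. The count of the 7 called lower in MTX+nitrate against MTX was 5. It was 0 in the fit over 2 groups, whose spread comes from the libraries of the 2 compared groups alone. There the SE of each of these 5 genes was larger than in the fit over all 15 libraries (Lcn2 0.50 beside 0.44). For MTX+nitrate against control, the SEs of Lcn2, Orm2 and Hp were smaller in the fit over 2 groups (Lcn2 0.36 beside 0.48). The reason was not tested. The count lower than in MTX was also 0 at an adjusted p under 0.01 and 2 with length and GC trends as offsets. It ranged from 0 to 5 when 1 library was left out. With these offsets Lcn2, Orm1 and Hpx lost their calls (adjusted p = 0.0573, 0.0869 and 0.0654), and the cause was not tested. The count called higher in MTX+nitrate against control was 3 and ranged from 2 to 3 without 1 library; a replicate block gave 2, as Hp was then not called (adjusted p = 0.0597). The genes whose MTX libraries all exceeded control numbered 5, and 5 to 6 without 1 library. Over all genes, 613 were called in MTX+nitrate against MTX; this was 384 without the expression filter, 248 in the fit over 2 groups, 30 at 0.01, 1154 with DESeq2, 294 with the offsets and 166 to 600 without 1 library. MTX+nitrate against control gave 342, with 46 at 0.01, 755 with DESeq2, 220 with the offsets and 99 to 455 without 1 library. MTX against control gave 521, with 43 at 0.01, 1116 with DESeq2 and 86 to 995 without 1 library. Same-numbered libraries deviated from their group means with correlations of -0.19 to 0.064 over 15 pairs. These values gave no sign that replicate numbers pair the libraries, but they cannot exclude it. A replicate block gave 0 of the 7 genes lower in MTX+nitrate against MTX and 129 genes in all, 157 genes for MTX+nitrate against control and 142 for MTX against control; Lcn2, Orm1, Hp, Hpx and Cp then had adjusted p-values of 0.124, 0.0534, 0.0843, 0.0866 and 0.0536. Depth limited Orm3 most, with as few as 14 counts in a library.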
